A study of Mus musculus with 12 samples.

Results

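The genes described here encode the constitutive proteasome, the protease that most cells use to degrade proteins tagged with ubiquitin. Members were all genes of the count table whose symbol begins with Psma, Psmb, Psmc or Psmd followed by a digit, without the immunoproteasome subunits Psmb8, Psmb9 and Psmb10 and without the tissue forms Psma8 and Psmb11. These were 35 of the 23420 genes in the table, of which 14 (Psma and Psmb) belong to the core and 21 (Psmc and Psmd) to the cap. One of the 21, Psmc3ip, matched by its name only: it encodes a co-factor of recombination in meiosis, had at most 6 counts in any mouse, and passed no filter on low counts. The other 34 passed the filter and were tested among 9742 genes.

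RNA was sequenced in bulk from M-MDSCs, monocytic myeloid-derived suppressor cells, a population of immature myeloid cells sorted as CD11b+Ly6G-Ly6Chi from bone marrow (the tissue is labelled as tibia). The mice were male C57BL/6JNIA, a strain kept by the National Institute on Aging, with no treatment named for either group, and fell into 6 aged mice of 24 months and 6 young mice of 6 months, with 1 library per mouse. The comparison asked how the transcriptome of these cells differed with age. Each aged library held 8737941 to 16300374 fragments and each young one 4613239 to 9079237, and the biological coefficient of variation was 15.7%. Levels are given as CPM, the counts of a gene scaled to the TMM-adjusted library total, and a log2 fold change is aged minus young.

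The proteasome is a barrel of stacked rings with a cap at its ends. The outer rings of the barrel are built of alpha subunits, which form the gate, and the inner rings of beta subunits, of which those encoded by Psmb5, Psmb6 and Psmb7 cut peptide bonds. The cap binds ubiquitin chains, removes them, unfolds the substrate with a ring of ATPases (Psmc genes) and feeds it into the barrel; its remaining subunits (Psmd genes) form the rest of the base and the lid. In myeloid cells the proteasome also makes peptides for presentation by MHC class I and degrades the inhibitors of NF-kB.

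As counted, without a correction for gene length, transcripts of nearly the whole particle were more abundant in aged M-MDSCs. Of the 34 members tested, 31 were higher in aged mice and 0 were lower by edgeR's quasi-likelihood test with Benjamini-Hochberg adjustment over all 9742 genes, at an adjusted p under 0.05. Across all genes tested, 22.4% were called higher and 23.0% lower. The fitted log2 fold change was above 0 for all 34 members, against 50.5% of all genes. Its median was 0.45 over the members and 0.0062 over all genes.

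Fitted changes were larger in the core than in the cap. All 14 core genes were called higher, with log2 fold changes from 0.41 (Psma1) to 0.87 (Psmb3) and a median of 0.65. In the cap, 17 of 20 tested genes were called higher, with log2 fold changes from 0.09 (Psmd1) to 0.64 (Psmd13) and a median of 0.30. Psmd1, Psmd7 and Psmd12 did not pass the test. The difference between the core and cap medians of the log2 fold changes was 0.35, and it is given as a description. The 6 aged mice lay above all 6 young mice for 10 of 14 core genes and 8 of 20 cap genes, against 9.68% of all genes tested.

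**Figure D1:**
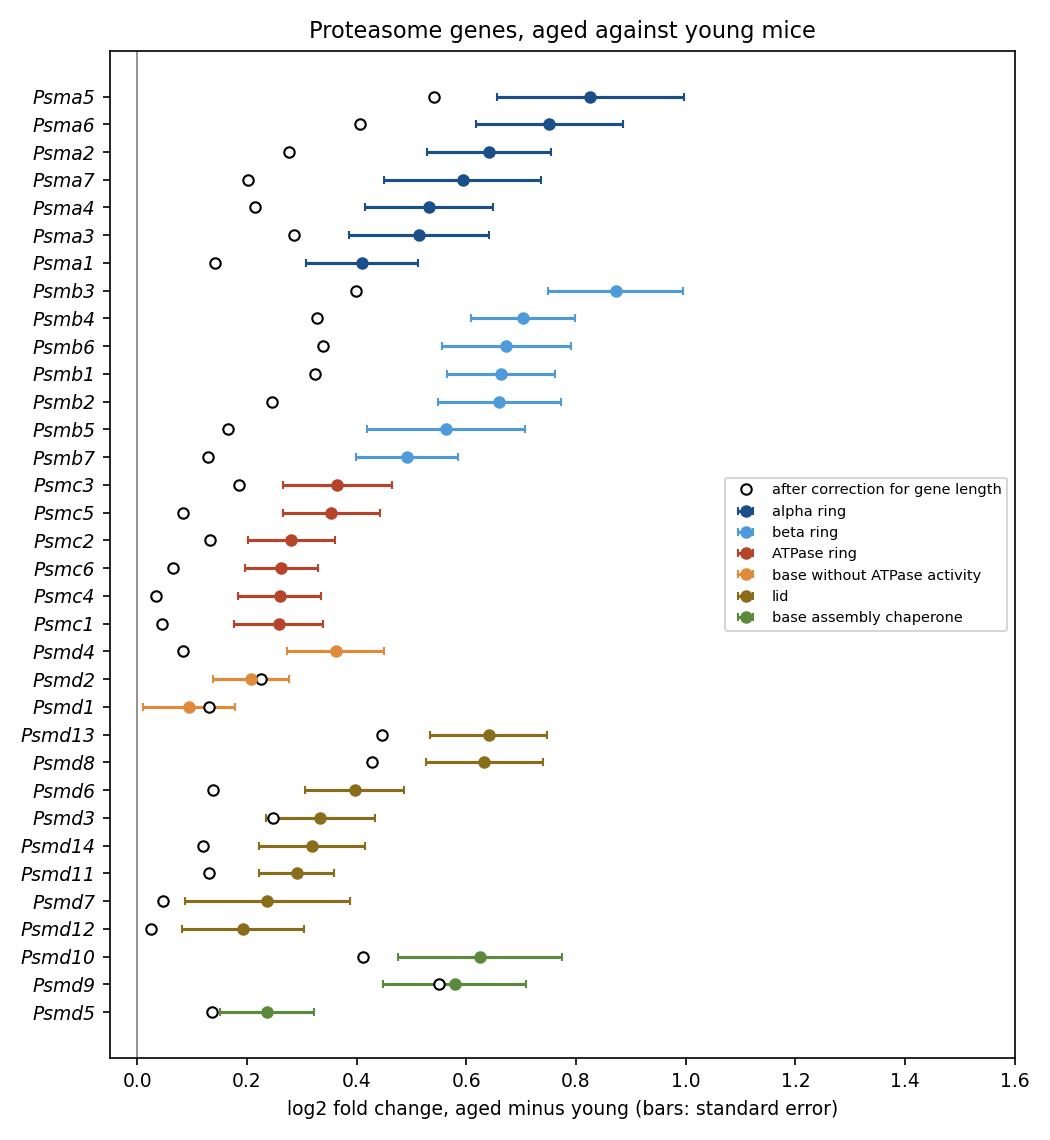
Log2 fold change (aged minus young, horizontal axis) of the 34 proteasome genes tested, by subcomplex; filled points are fitted values with the standard error as bars, and open points are values after correction of each library for gene length. Filled points of the core lie between 0.41 and 0.87 and those of the cap between 0.09 and 0.64, and the open points lie closer to 0 for all genes but Psmd1 and Psmd2.

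Exon length moved with the fold change across all genes. The median length over exons was 983 bases for core genes, 1582 for cap genes and 2890 for all genes tested. Among genes of up to 1000 bases the median log2 fold change was 0.50, and among genes over 5000 bases it was -0.31. Spearman's rho between log2 fold change and length was -0.48 across the 9742 genes and -0.73 across the 34 members (-0.32 within the core and -0.44 within the cap), where genes share their libraries and are not independent. When each library was corrected for its dependence on gene length, 14 of the 31 calls remained, 9 in the core and 5 in the cap, against 18.3% of all genes called higher. These were Psma2, Psma3, Psma5, Psma6, Psmb1, Psmb2, Psmb3, Psmb4, Psmb6, Psmd2, Psmd8, Psmd9, Psmd10 and Psmd13. Of the 5 cap calls, Psmd9 and Psmd10 encode chaperones of base assembly and not subunits of the finished cap. The cap calls held 0 of 6 genes of the ATPase ring and 1 of 3 of the rest of the base. They held 2 of 8 lid genes and 2 of 3 assembly chaperones. The median log2 fold change was then 0.28 in the core and 0.13 in the cap, a difference of 0.15, and all 34 values stayed above 0.

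Core and cap genes were also compared at a like length. In the class of over 1000 to 1500 bases, the 6 core genes (Psma1, Psma3, Psma4, Psma5, Psmb1 and Psmb6) had a median log2 fold change of 0.60 and the 6 cap genes (Psmc1, Psmc4, Psmc5, Psmd4, Psmd6 and Psmd10) a median of 0.36, with 0.29 for all 944 genes of the class. After the length correction these medians were 0.31, 0.083 and 0.019. This class was chosen after the values were seen, and even within it the core genes were shorter, with a median of 1156 against 1366 bases. Spearman's rho between log2 fold change and GC content was 0.15 across the 34 members, 0.39 within the core and 0.34 within the cap, and correction for GC content left all 31 calls in place.

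**Figure D2:**
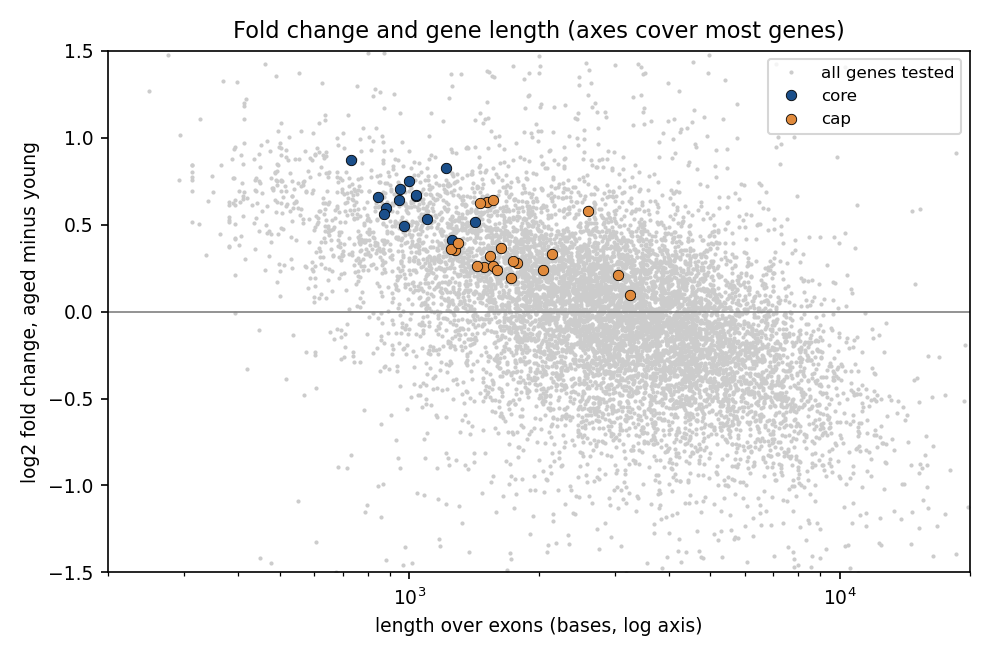
Log2 fold change (aged minus young) against length over exons on a log axis, with all genes tested as grey points and the core (14 genes) and cap (20 genes) in colour; a few genes lie outside the axes. The core genes sit at the short end, with a median of 983 bases, and the cap genes, with a median of 1582 bases, sit below most of them.

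Summed levels were compared mouse by mouse. The summed level of the 14 core genes was 679 to 858 CPM in aged mice (791 ± 62.3, mean ± SD, n = 6) and 396 to 614 CPM in young mice (512 ± 90.4, n = 6). The summed level of the 20 cap genes was 785 to 851 CPM in aged mice (816 ± 23.6) and 558 to 697 CPM in young mice (641 ± 54.5). The groups did not overlap in either sum. The ratio of the core to the cap sum was 0.855 to 1.01 in aged and 0.681 to 0.881 in young mice, and here the lowest aged mouse (replicate 7) lay below the highest young mouse (replicate 9). The core sum was lowest in young replicates 5 and 6, with 396 and 410 CPM, and among aged mice in replicate 7, with 679 CPM. Young replicates 5 and 6 lay below all other young mice in the core sum, and also in the cap sum with 558 and 602 CPM.

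The same mice stood apart in measures that are not of the proteasome. The median log2 level of genes of up to 1000 bases minus that of genes over 5000 bases, each relative to its mean over mice, was 0.15 to 0.52 in aged and -0.82 to -0.10 in young mice, with the lowest aged value in replicate 7 and the lowest young values in replicates 5 and 6. The summed level of 12 genes of cycling cells was 432 to 974 CPM in aged mice, highest in replicate 7, and 806 to 1528 CPM in young mice, highest in replicates 5 and 6. 5 of these 12 genes were lower in aged mice and 0 were higher by edgeR's test, and 3 were lower after the length correction. With young replicates 5 and 6 left out, an alternative chosen after seeing the data, 24 of the 31 calls remained. All 14 core genes and 10 cap genes were among them. With the length correction added 9 remained, 6 in the core and 3 in the cap. In each of these fits fewer genes of the whole table were also called higher than with all mice, by the numbers given below. Whether the 3 cap calls exceed the share of all genes called in that fit was not tested.

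**Figure D3:**
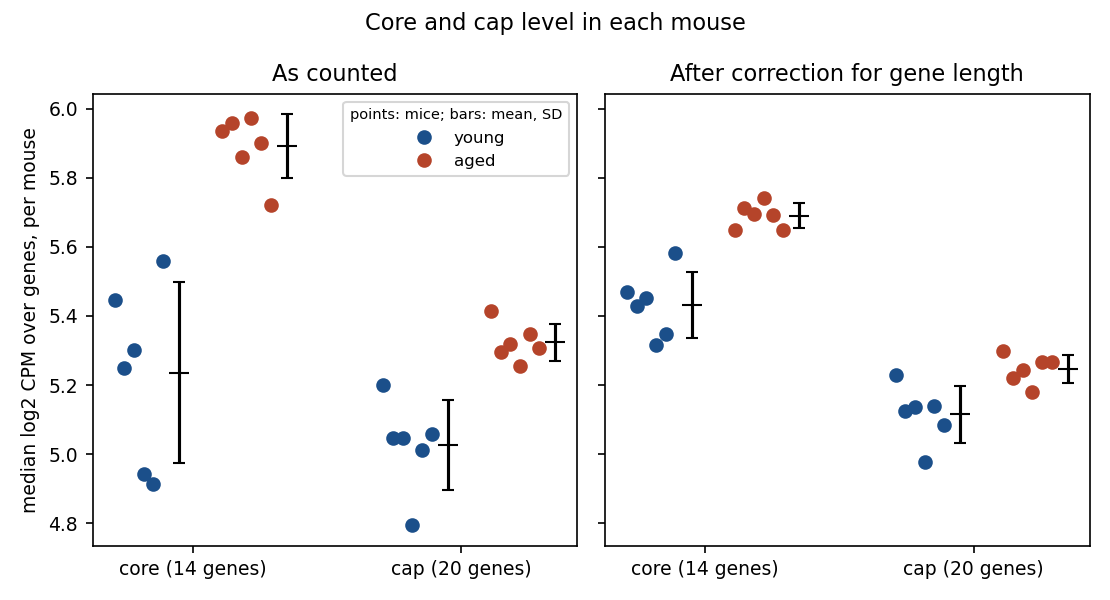
Median log2 CPM over the core (14 genes) and the cap (20 genes) in each mouse, as counted (left) and after correction for gene length (right); points are mice and bars the mean with SD of 6 mice. Aged and young mice do not overlap for the core in either panel, whereas after correction the cap spans 5.18 to 5.30 in aged and 4.98 to 5.23 in young mice.

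The libraries were set against the markers of the sorted cells. The monocyte genes Ly6c2 (908 CPM per kilobase in aged and 625 in young mice) and Csf1r (36.5 and 34.7) were present, and of 8 monocyte genes 2 were higher and 1 lower in aged mice (1 and 0 after the length correction), with sums of 3762 to 4923 CPM against 4501 to 4669 CPM. Genes of neutrophil granules were far higher in the same libraries: Ngp reached 34130 CPM per kilobase in aged and 26650 in young mice, and Ltf 7623 and 7922, although the gate excludes Ly6G+ cells. The summed level of the 10 genes of the neutrophil and promyelocyte list was 98020 to 116200 CPM in aged and 66980 to 99710 CPM in young mice, lowest in young replicates 5 and 6, and 7 of the 9 tested were higher in aged mice and 0 lower. Of these 9, 2 were higher after the length correction, and Ngp was at 0.064 and S100a8 at 0.11 on the log2 scale. All 6 resident macrophage genes in the table were higher in aged mice, also after the length correction, with sums of 40.9 to 796 CPM against 33.4 to 51.4 CPM. The sums of B cell genes (1.93 to 12.5 CPM over all mice) and T and NK cell genes (6.11 to 12.4 CPM) were low. Those of the 4 erythroid genes analysed were 0.74 to 5.13 CPM in aged and 0.12 to 0.47 CPM in young mice, without overlap and with Hba-a1 at 0. Dendritic cell genes summed to 8.23 to 18.7 and 12.6 to 21.3 CPM, with 1 of 2 tested lower, and plasma cell genes to 133 to 234 and 109 to 160 CPM, with 1 of 2 tested higher, both also after the length correction. In bulk samples, fewer cells of a type and less RNA per cell cannot be told apart, and the part of these cell types in the proteasome result was not tested. Every young mouse had a lower sample number in the table's column names than any aged mouse, so that a batch that follows these numbers and age cannot be told apart.

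The sequence before the start of 5 genes is shown because it carries the motifs for which members were searched: Psmb3, the largest rise; Psmb6, a catalytic subunit; Psma6, the core gene with both motifs; Psmc6 of the ATPase ring; and Psmd12, which did not pass the test. Each run is the 250 bases before the RefSeq start, 5′ to 3′ on the gene's strand (GRCm38.p6, which is mm10, plus strand for all 5): chr11:97703184-97703433 for Psmb3, chr11:70525107-70525356 for Psmb6, chr12:55398575-55398824 for Psma6, chr14:45329574-45329823 for Psmc6 and chr11:107479278-107479527 for Psmd12. Capitals mark matches on either strand to TGANNNNGC, the short form of the antioxidant response element read by NRF1 and NRF2 (genes Nfe2l1 and Nfe2l2), and to CCGGAAG, a core sequence of ETS factors; no matches of one shared bases with the other.
Psmb3: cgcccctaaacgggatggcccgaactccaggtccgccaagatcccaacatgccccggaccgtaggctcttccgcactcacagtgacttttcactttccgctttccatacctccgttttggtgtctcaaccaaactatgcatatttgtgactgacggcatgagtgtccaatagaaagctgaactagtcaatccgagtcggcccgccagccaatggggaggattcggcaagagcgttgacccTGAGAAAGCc
Psmb6: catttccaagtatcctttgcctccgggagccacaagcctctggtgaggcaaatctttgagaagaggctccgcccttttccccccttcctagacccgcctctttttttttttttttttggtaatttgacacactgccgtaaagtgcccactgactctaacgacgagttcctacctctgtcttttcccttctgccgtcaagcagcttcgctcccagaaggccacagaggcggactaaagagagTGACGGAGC
Psma6: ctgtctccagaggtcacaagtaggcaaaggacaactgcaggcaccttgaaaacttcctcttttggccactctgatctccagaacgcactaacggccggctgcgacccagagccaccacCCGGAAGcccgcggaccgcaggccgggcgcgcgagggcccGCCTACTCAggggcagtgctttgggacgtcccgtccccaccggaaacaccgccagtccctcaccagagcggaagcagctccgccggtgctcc
Psmc6: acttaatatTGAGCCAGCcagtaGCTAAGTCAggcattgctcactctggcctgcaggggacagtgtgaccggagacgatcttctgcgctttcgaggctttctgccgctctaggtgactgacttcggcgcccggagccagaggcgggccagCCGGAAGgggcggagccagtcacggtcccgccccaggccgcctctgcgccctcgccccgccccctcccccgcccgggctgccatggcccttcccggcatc
Psmd12: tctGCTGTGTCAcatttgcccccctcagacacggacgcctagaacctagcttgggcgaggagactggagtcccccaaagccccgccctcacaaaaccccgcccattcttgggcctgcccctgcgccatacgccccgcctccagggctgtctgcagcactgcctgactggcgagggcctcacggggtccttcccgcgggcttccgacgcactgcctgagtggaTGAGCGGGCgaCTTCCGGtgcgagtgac

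In Psmb3 and Psmb6 the match to TGANNNNGC began 10 and 9 bases before the start. A RefSeq window of 250 bases before to 50 after the start was at hand for 28 of the 34 members (all but Psmb1, Psmb2, Psmb7, Psmc3, Psmd3 and Psmd7). TGANNNNGC was found on either strand in 15 of these 28, in 8 of 11 core and 7 of 17 cap promoters, against 41.3% of 32851 promoters of the same length. Without the 50 bases after the start it was found in 5 of 11 core and 5 of 17 cap promoters, against 35.2% of all. CCGGAAG was found in 1 of 11 core promoters (Psma6) and 9 of 17 cap promoters, against 8.86% of all. GGGCGG, the box bound by Sp1, was found in 5 of 11 core and 13 of 17 cap promoters, against 35.7% of all. CCAAT, the box bound by NF-Y, was found in 10 of 28 (37.4% of all) and TATAAA in 3 (13.6%). A match is a description of letters and not a site of binding. Psmd12 held both motifs and did not pass the test, and Psmb3 held TGANNNNGC and not CCGGAAG in its window.

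The alpha ring, which forms the gate of the barrel, was higher at every one of its 7 genes, with a median log2 fold change of 0.59. The largest change was in Psma5 (chr3:108256926-108279952, 9 exons, mm10), with 6.52, 10.4 and 10.9 CPM (lowest, median and highest) in aged mice and 4.02, 5.45 and 7.23 CPM in young mice. The log2 fold change was 0.83 (SE 0.17, adjusted p = 0.00146, edgeR's quasi-likelihood test), and the groups overlapped by aged replicate 7 alone, which at 6.52 CPM lay below young replicate 1. Psma5 rested on 25 to 117 counts per mouse. Psma2 (chr13:14613242-14625673), with the smallest p of the ring, measured 91.7, 102 and 110 CPM in aged and 48.4, 67.5 and 80.2 CPM in young mice. Its log2 fold change was 0.64 (SE 0.11, adjusted p = 0.000522), and the groups did not overlap.

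Psma1 (chr7:114264550-114276116) had the smallest change of the ring. Its level was 74.9, 82.2 and 84.6 CPM in aged and 45.7, 65.6 and 70.2 CPM in young mice, and its log2 fold change was 0.41 (SE 0.10, adjusted p = 0.00462). All aged mice lay above all young mice here too, yet after the length correction the value was 0.14 (adjusted p = 0.179). Psma6 rose by 0.75 and Psma7 by 0.59 on the log2 scale, Psma4 by 0.53 and Psma3 by 0.51. After the length correction Psma2, Psma3, Psma5 and Psma6 remained called.

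The beta ring carries the active sites. Its catalytic subunits are encoded by Psmb6 (caspase-like cleavage), Psmb7 (trypsin-like) and Psmb5 (chymotrypsin-like, the site that bortezomib binds most tightly), and all 3 were higher in aged mice. Psmb6 (chr11:70525357-70527858, 6 exons) measured 52.2, 61.6 and 65.3 CPM in aged and 29.3, 37.6 and 50.3 CPM in young mice. Its groups did not overlap, and its log2 fold change was 0.67 (SE 0.12, adjusted p = 0.000486). After the length correction it was 0.34 (adjusted p = 0.00451).

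Psmb7 (chr2:38588046-38643906, 8 exons) measured 52.9, 56.4 and 59.9 CPM in aged and 31.0, 39.2 and 48.0 CPM in young mice. The log2 fold change was 0.49 (SE 0.093, adjusted p = 0.000828), the smallest of the ring, with groups that did not overlap. Psmb5 (chr14:54614120-54617995, 3 exons) measured 28.3, 34.7 and 36.5 CPM in aged and 14.9, 22.2 and 31.3 CPM in young mice. Its groups overlapped, since young replicate 10 (31.3 CPM) lay above aged replicates 4 and 7 (30.8 and 28.3 CPM), and its log2 fold change was 0.56 (SE 0.14, adjusted p = 0.00562). After the length correction Psmb7 was at 0.13 (adjusted p = 0.130) and Psmb5 at 0.17 (adjusted p = 0.181), and neither was called.

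**Figure D4:**
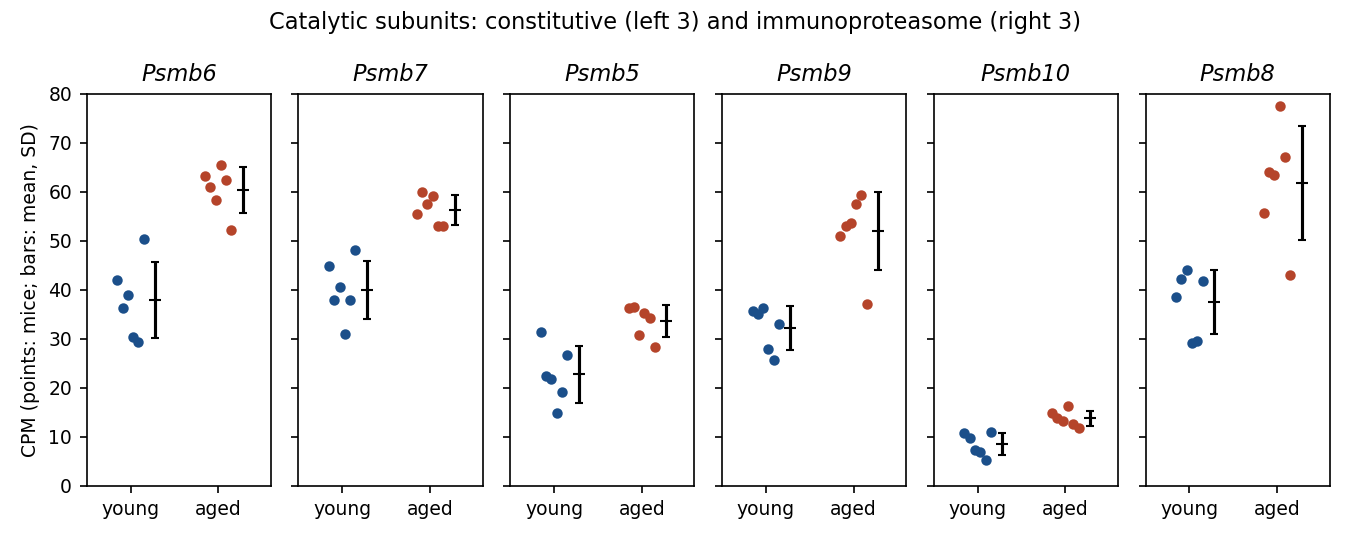
CPM of the catalytic subunits of the constitutive proteasome (Psmb6, Psmb7, Psmb5) and of the immunoproteasome subunits that replace them (Psmb9, Psmb10, Psmb8) in each mouse; points are mice and bars the mean with SD of 6 mice per age. Aged mice lie above young mice without overlap for Psmb6, Psmb7, Psmb9 and Psmb10, while Psmb5 overlaps between 28.3 and 31.3 CPM and Psmb8 between 43.0 and 43.9 CPM.

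The noncatalytic beta subunits, encoded by Psmb1 to Psmb4, were all called higher. Psmb3 (chr11:97703434-97713500, 6 exons) measured 55.5, 69.0 and 82.5 CPM in aged and 28.8, 40.9 and 43.7 CPM in young mice, with no overlap. Its log2 fold change of 0.87 (SE 0.12, adjusted p = 0.000115) was the largest of the 34 members, a fold of 1.83. Psmb4 (chr3:94884324-94886958, 7 exons) measured 57.1, 71.4 and 75.6 CPM in aged and 34.9, 45.4 and 47.6 CPM in young mice, with no overlap. Its adjusted p of 8.34e-05, with a log2 fold change of 0.70 (SE 0.095) in edgeR's test, was the smallest of the members. Psmb1 and Psmb2 each rose by 0.66 on the log2 scale, and Psmb1, Psmb2, Psmb3 and Psmb4 remained called after the length correction, at 0.24 to 0.40.

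The immunoproteasome subunits, which replace the catalytic ones in cells exposed to interferon and in many blood cells, were measured beside them. Psmb8, Psmb9 and Psmb10 were all higher in aged mice, with log2 fold changes of 0.73, 0.69 and 0.70, and all 3 remained called after the length correction, at 0.44, 0.25 and 0.44. The ratio of Psmb8 to Psmb5 in CPM was 1.52 to 2.20 in aged and 1.23 to 2.01 in young mice, that of Psmb9 to Psmb6 was 0.708 to 0.953 and 0.655 to 0.962, and that of Psmb10 to Psmb7 was 0.223 to 0.274 and 0.140 to 0.258. The ages overlapped in all 3 ratios. Of the tissue forms, Psma8 of the testis had at most 0.233 CPM in any mouse and Psmb11 of the thymus was at 0 in all 12.

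The ATPase ring unfolds substrates and opens the gate of the barrel. All 6 of its genes were higher in aged mice, within a narrow range of log2 fold changes from 0.26 to 0.37 around a median of 0.27, and 0 of 6 remained called after the length correction. The largest change was in Psmc3 (chr2:91054016-91059438), with 45.2, 51.4 and 55.3 CPM in aged and 29.1, 39.4 and 47.1 CPM in young mice and a log2 fold change of 0.37 (SE 0.10, adjusted p = 0.00836). Its groups overlapped. Psmc5 (chr11:106256185-106263112) had the smallest p of the ring, with 14.03, 15.6 and 16.6 CPM in aged and 10.3, 12.6 and 13.1 CPM in young mice. Its groups did not overlap, and its log2 fold change was 0.35 (SE 0.088, adjusted p = 0.00483).

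Psmc1 (chr12:100112331-100123364) had the smallest change of the ring. It measured 21.1, 24.8 and 27.9 CPM in aged and 19.6, 20.8 and 22.3 CPM in young mice, with groups that overlapped. The log2 fold change was 0.26 (SE 0.081, adjusted p = 0.0172). Psmc4 and Psmc6 changed by as little (0.26 each), yet their groups did not overlap: Psmc6 lay at 45.9 to 54.3 CPM in aged and 38.9 to 45.4 CPM in young mice. Psmc2 rose by 0.28.

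The base subunits without ATPase activity hold the docking sites for ubiquitin. Psmd4, a ubiquitin receptor (chr3:95032705-95042545), measured 39.8, 46.7 and 56.0 CPM in aged and 32.8, 36.7 and 41.1 CPM in young mice, and the lowest aged mouse lay inside the young range. Its log2 fold change was 0.36 (SE 0.089, adjusted p = 0.00432). Psmd2, the scaffold to which shuttle proteins and deubiquitinase Usp14 bind, measured 65.3, 74.7 and 79.6 CPM in aged and 55.7, 64.3 and 69.4 CPM in young mice.

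Psmd2 had a log2 fold change of 0.21 (SE 0.069, adjusted p = 0.0232). It is the second longest member at 3053 bases, and the length correction left it at 0.23 (adjusted p = 0.0202). Without young replicate 5 its call was lost. Psmd1, the scaffold for the ubiquitin receptor Adrm1 (chr1:86064619-86139295, 25 exons, the longest at 3256 bases), measured 48.9, 56.7 and 61.0 CPM in aged and 45.4, 51.6 and 60.5 CPM in young mice. These ranges overlapped almost wholly, with a log2 fold change of 0.09 (SE 0.084, adjusted p = 0.375) by edgeR's test. Adrm1 itself, which the rule did not include, had a log2 fold change of 0.12 (adjusted p = 0.268).

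The lid was uneven. Of its 8 genes 6 were called higher, and its median log2 fold change was 0.33. Psmd13 (chr7:140882394-140898642), a structural subunit, measured 61.9, 71.5 and 79.5 CPM in aged and 34.8, 48.4 and 52.4 CPM in young mice, with no overlap. Its log2 fold change was 0.64 (SE 0.11, adjusted p = 0.000342). Psmd8 (chr7:29174187-29180673), the subunit that joins the lid last, measured 81.4, 94.4 and 100.5 CPM in aged and 44.5, 62.2 and 71.3 CPM in young mice, with no overlap and a log2 fold change of 0.63 (SE 0.11, adjusted p = 0.00039). Both lay in the range of the core genes and not of the other lid genes, and both remained called after the length correction, at 0.45 and 0.43.

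The other lid genes changed less. Psmd14, the deubiquitinase that removes ubiquitin chains from substrates, measured 43.4, 52.2 and 54.7 CPM in aged and 34.1, 39.8 and 48.0 CPM in young mice. Its log2 fold change was 0.32 (SE 0.097, adjusted p = 0.0149), and its groups overlapped. Psmd7, which pairs with Psmd14 in the lid, was a low gene of 25 to 130 counts per mouse, with 6.28, 8.14 and 10.9 CPM in aged and 5.36, 7.20 and 8.05 CPM in young mice. Psmd7 did not pass the test, with a log2 fold change of 0.24 (SE 0.15, adjusted p = 0.210).

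Psmd12 (chr11:107479528-107498036), a structural lid subunit, measured 16.8, 20.9 and 24.4 CPM in aged and 13.7, 17.9 and 20.5 CPM in young mice. The ranges overlapped from 16.8 to 20.5 CPM, and the log2 fold change was 0.19 (SE 0.11, adjusted p = 0.168). Psmd6 rose by 0.40, Psmd3 by 0.33 and Psmd11 by 0.29, and of these only Psmd11 had groups that did not overlap. None of these 3 remained called after the length correction.

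The remaining members, Psmd5, Psmd9 and Psmd10, encode chaperones that hold the ATPases during assembly of the base and leave before the particle is complete. All 3 were called higher, with a median log2 fold change of 0.58. Psmd10 (gankyrin, on chromosome X at chrX:140948425-140956711) measured 17.8, 19.2 and 21.1 CPM in aged and 7.70, 12.5 and 16.3 CPM in young mice, with no overlap and a log2 fold change of 0.62 (SE 0.15, adjusted p = 0.00376). Psmd9 (chr5:123228190-123250125) measured 7.81, 8.86 and 9.96 CPM in aged and 4.58, 6.00 and 7.50 CPM in young mice, again with no overlap.

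The log2 fold change of Psmd9 was 0.58 (SE 0.13, adjusted p = 0.00249) and stayed at 0.55 after the length correction, the highest corrected value of the 34 members. Psmd5 (chr2:34852089-34870962) measured 25.8, 28.5 and 34.1 CPM in aged and 21.9, 25.5 and 26.4 CPM in young mice. Its ages overlapped, and its log2 fold change was 0.24 (SE 0.086, adjusted p = 0.0344). The call of Psmd5 was lost without aged replicate 2, aged replicate 4, young replicate 1 or young replicate 5, in turn. The calls of the other members were kept with each mouse left out in turn, save that of Psmd2 above.

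Per length of exon, the core genes were at higher levels than the cap genes at both ages. The median level was 61.2 CPM per kilobase in aged and 40.9 in young mice over the core genes, and 24.0 and 19.6 over the cap genes. Within the core, levels ran from Psma5 (7.97 in aged and 4.53 in young mice) to Psma2 (107.5 and 69.0). Within the cap they ran from the chaperone Psmd9 (3.45 and 2.33) to Psmd8 (61.4 and 39.7). The order of the 34 members was nearly the same at both ages, with Spearman's rho of 0.985 across genes.

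Some low levels sit beside copies elsewhere in the genome. The authors' mapping quality filter may remove fragments that fit several places, depending on the aligner, and 55.8% of the 50-base stretches of Psmb3, 54.5% of Psma5 and 50% of Psmb5 also occurred in annotated pseudogenes. Of the 34 members, 19 had no such stretch and 8 had more than 10%. The levels of those 8 (Psmb3, Psma5, Psmb5, Psma4, Psmd2, Psma3, Psmc1 and Psmd11) relative to other genes are therefore uncertain, and the part of these copies in their fold changes was not tested.

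**Figure D5:**
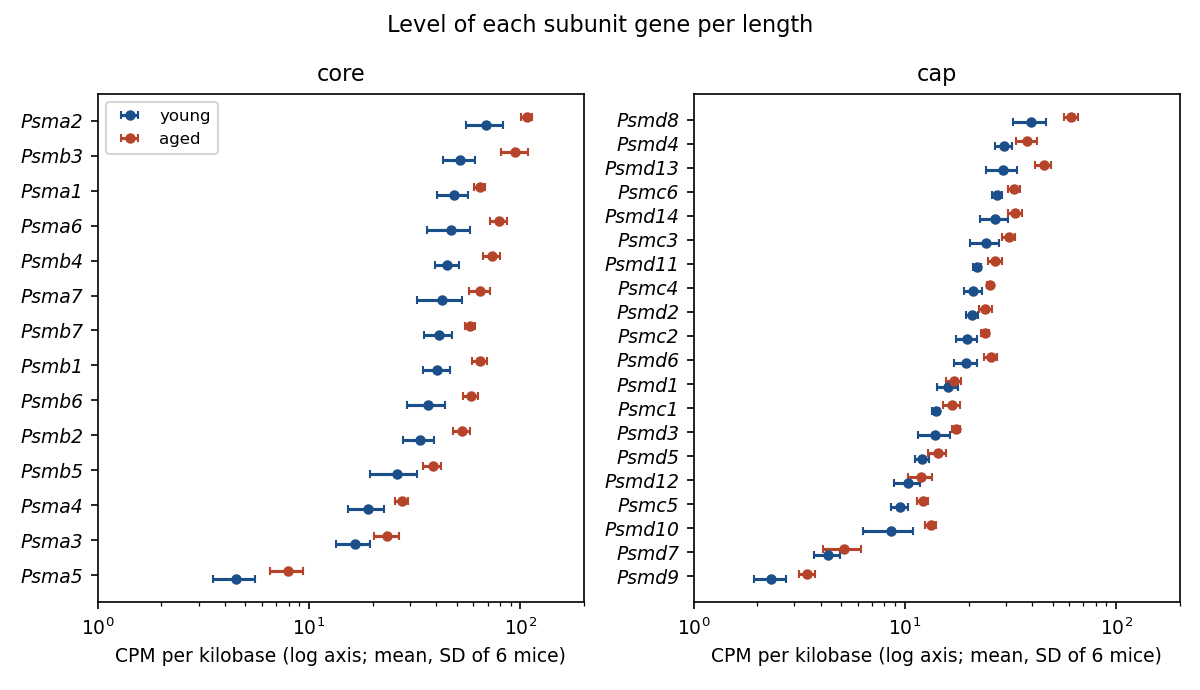
Level of each gene in CPM per kilobase of exon on a log axis, core on the left and cap on the right, as the mean with SD of 6 young and 6 aged mice. In the core, Psma2 is highest (107.5 in aged mice) and Psma5 lowest (7.97); in the cap, Psmd8 is highest (61.4) and Psmd9 lowest (3.45).

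The spread between mice was wider in the young group. The median coefficient of variation of CPM over the 34 members was 7.88% in aged and 15.3% in young mice, against 13.04% and 14.7% over all genes tested. It was 9.28% and 19% over the core genes and 7.54% and 11.9% over the cap genes. Without young replicates 5 and 6 it was 9.62% for the members over 4 young mice, 9.75% for the core and 9.46% for the cap. Over all genes tested it was then 10.04%. These replicates were the lowest young mice in the core and cap sums, so leaving them out narrows the spread of these genes in any case. No aged mice were left out in the same way. Core counts per mouse were 2550 to 5312 in young and 7085 to 10834 in aged mice. Library totals were 8385986 and 9079237 in young replicates 5 and 6, and 4613239 to 9079237 over all young mice. The part of library depth in the spread between young mice was not tested. After every library was thinned to the depth of the shallowest, 30 of the 31 calls remained, all but Psmd5.

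The genes around the proteasome did not move as 1 block. Shfm1, which encodes the small lid subunit Sem1, rose by 0.76 on the log2 scale in aged mice (adjusted p = 0.00489, edgeR) but was at 0.17 (adjusted p = 0.208) after the length correction. Of the activators that open the core without a cap, Psme1 (0.46), Psme2 (0.69) and Psme3 (0.21) were called higher. Psme4, the nuclear activator PA200, was at -0.17 (adjusted p = 0.0583), and the inhibitor Psmf1 was at 0.29 (adjusted p = 0.108). Psme2 and Psme3 remained called after the length correction, Psme1 was at 0.10 (adjusted p = 0.258) and Psme4 turned to 0.14 (adjusted p = 0.122). Of 4 core assembly chaperones tested, only Pomp, which guides the maturation of the beta ring, passed the test (0.33), and the length correction turned it to -0.16 (adjusted p = 0.0957). Psmg1 and Psmg3 were at 0.40 and 0.39 and Psmg2 at -0.43, at low levels and without a call. Corrected for length, they were at 0.057, -0.032 and -0.78, and Psmg2 was called lower (adjusted p = 0.0315).

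Among 16 proteasome-associated proteins 1 was called higher and 3 lower. Zfand5, an activator of the cap, was higher by 0.39, while the ubiquitin ligases Ube3c and Ube3a, at -0.19 and -0.23, and AI314180 (Ecm29, a clamp between core and cap), at -0.33, were lower. After the length correction these 3 were at 0.0078, 0.052 and -0.062 and none was called, while Zfand5 was at 0.76, Rad23b was called higher (0.18, adjusted p = 0.040) and Akirin2 lower (-0.29, adjusted p = 0.00923). The deubiquitinases Usp14 and Uchl5 were at -0.013 and 0.040 and did not pass. The call of Ube3c was kept in 3 of the 12 fits with each mouse left out in turn, and was lost with the GC correction.

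Of 12 tested genes that regulate proteasome transcription, 1 was called higher and 2 lower. Nfe2l1, the factor that raises proteasome genes when the protease is inhibited, measured 75.7, 87.1 and 97.9 CPM in aged and 104.1, 107.6 and 110.5 CPM in young mice. All aged mice lay below all young mice, with a log2 fold change of -0.31 (SE 0.069, adjusted p = 0.00254, edgeR's quasi-likelihood test), and after the length correction it was -0.12 (adjusted p = 0.132). Nfya, a subunit of NF-Y, was also lower without overlap, at -0.65 (adjusted p = 0.000127), and stayed lower after the length correction (-0.57). Its partner Nfyb was higher by 0.19, and Mafg was called lower after the length correction alone (-0.33, adjusted p = 0.00663).

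Of the genes that supply and activate ubiquitin, Rps27a, which encodes ubiquitin fused to a ribosomal protein, rose by 0.98 on the log2 scale, Ubb by 0.50 and the activating enzyme Uba1 by 0.28. Rps27a and Uba1 remained called after the length correction, and Ubb was at 0.21 (adjusted p = 0.147). Of 7 genes of the Vcp segregase, which pulls ubiquitinated proteins out of complexes, only Ubxn1 was called (0.47), and Vcp itself was at 0.08 (adjusted p = 0.338). Corrected for length, Ubxn1 was at 0.13 (adjusted p = 0.155) and Nploc4, a co-factor of Vcp, was called higher at 0.30 (adjusted p = 0.0035).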

How the data were processed

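The deposited table held whole-number counts of fragments per gene that the authors made with featureCounts 2.0.0: reverse-stranded, paired, both ends on 1 chromosome, mapping quality of at least 60, over exons of a UCSC mm10 annotation. The aligner is not given in the sources used here. Gene length is the deposited length over exons. All 12 columns were used, 0 were left out, and every row named a gene. Each library is 1 mouse, and no pair of libraries of 1 age agreed within sampling noise.

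Counts were fitted with edgeR 4.0.16 in R 4.3.3 (filterByExpr, TMM factors of 0.919 to 1.10, quasi-likelihood test, age as the only term, Benjamini-Hochberg adjustment over 9742 genes, threshold 0.05). The study's methods name DESeq2, which was run as an alternative (1.42.0), with limma-voom (limma 3.58.1), other scalings and filters, and thinned libraries. Further alternatives were corrections for gene length and GC content, a replicate block and each mouse left out. The corrections were lowess offsets with a span of 0.3. GC values were at hand for 9198 genes and all 34 members, and the remaining genes had no GC offset. On simulated counts for 9698 genes of this comparison, 46% of changes of 0.5 (log2) and 92% of changes of 1 were recovered, with 7 false calls. Log2 CPM per mouse used a prior count of 2. The members and all gene lists were chosen with earlier results of these data known. Every member could be named; full statistics were given for the catalytic subunits and, per subcomplex, for the largest and smallest change and the smallest p; of other lists, any called gene and the largest changes. Promoter windows came from RefSeq on GRCm38.p6. Some genes of the ubiquitin list are not reported here.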

Additional observations from a re-analysis of the deposited data

Results flagged for a closer look

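The CPM of each member were examined for a sample far from the others of its age, in 68 sets of 6 mice. In 4 of them the lowest mouse stood apart by Dixon's test at the 95% level. Chance flags about 1 in 20 groups. Aged replicate 7 was the low sample for Psma6 (64.65 CPM), Psmb1 (56.07 CPM) and Psmb4 (57.07 CPM), all of them core genes, and it was also the aged mouse with the lowest core sum. Aged replicate 4 was the low sample for Psmd14 (43.41 CPM). In Psma6, Psmb1 and Psmb4 the low aged mouse still lay above all young mice.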

How the results depend on the processing

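The 31 calls among the members were all kept with DESeq2, limma-voom, upper quartile scaling, the GC correction and a minimum of 10 counts in every mouse; 29 were kept with no filter on low counts and 30 in thinned libraries. With each mouse left out in turn, 29 to 31 members were called, 14 in the core and 15 to 17 in the cap, with core medians of 0.57 to 0.70 and cap medians of 0.27 to 0.33. With the gene length correction 14 members were called, 9 in the core and 5 in the cap, with medians of 0.28 and 0.13 and a difference of 0.15. Without TMM factors 25 were called, 11 of them in the cap, and 37.85% of all calls were higher in place of 49.38%. Without young replicates 5 and 6, 10 cap members were called, and the number of genes called higher in aged mice was 1392 (2185 with all mice). The Psmd1 log2 fold change turned to -0.011 (adjusted p = 0.932). With the length correction added, 9 members were called, 6 in the core and 3 in the cap, with medians of 0.20 and 0.11, a difference of 0.094, and there were 1030 genes called higher in aged mice and 992 genes called lower in aged mice.

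The replicate numbers 1, 2, 5 and 6 occur at both ages. Deviations from the mean of each age correlated at -0.14, -0.065, -0.24 and -0.25 in same-numbered mice. Pairs with different numbers ran from -0.26 to 0.30, a range that holds these values. The correlations therefore cannot decide whether same-numbered mice were handled together, which was not tested. With a replicate block 25 members were called, 11 of them in the cap, with 1586 genes called higher in aged mice and 1860 genes called lower in aged mice. With the block and the length correction, 10 were called, 7 in the core and 3 in the cap, with medians of 0.36 and 0.16 and there were 907 genes called higher in aged mice and 968 genes called lower in aged mice. With motifs searched in the 250 bases before the start alone, TGANNNNGC was found in 10 of 28 members (35.2% of all promoters) and CCGGAAG in 9 (6.91%). Aged libraries were mostly deeper than young ones, with totals that overlapped, and genes of few counts, such as Psma5 and Psmd7, were measured least precisely.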
